A study of Mus musculus with 12 samples.

Results

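These results describe the baseline transcriptome of primary mouse chondrocytes, taken from the 4 libraries whose treatment label is control, out of 12 libraries in the series. The other libraries, 4 with a wild-type plasmid and 4 with a plasmid for the SIRT5 F101L mutant, were left out of every value below, apart from checks for genes listed at 0. All cells carry the wild-type genotype in the labels, and what the control cells received in place of a plasmid is not stated there. Strain, sex, age of the animals and days in culture were not given in the sources used here. The labels do not say that the 4 libraries came from separate cultures or animals, so the spread between them may be technical.

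Chondrocytes are the resident cells of cartilage. They secrete a matrix of type II collagen fibrils, which types IX and XI collagen modify, and of aggrecan, the large proteoglycan that holds water. The transcription factor SOX9, with SOX5 and SOX6, drives the genes of this matrix. Chondrocytes grown flat on plastic are known to turn toward a fibroblast-like state with more type I collagen, and hypertrophic chondrocytes, the last stage of the growth plate, make type X collagen. Markers of each state were therefore read side by side.

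The deposited values were whole-number counts per gene for 57010 gene IDs. The 4 control libraries held 18233484 to 19905485 counts. On the CPM scale, which divides by the library total, each count weighed between 0.0502 and 0.0548. Levels are given as TPM, the length-scaled share of a gene in the library, computed from the counts and the length of all exons of a gene, because counts alone cannot rank genes of different length. A gene was called above the floor when it had more than 3 counts in all 4 libraries, which 59.8% of the 20716 autosomal coding genes did. Of the same genes, 36.8% had a mean of 10 TPM or more and 7.20% of 100 TPM or more. Counts of list members at these levels are to be read against these shares. Values in brackets after a mean are the standard deviation (SD) over 4 libraries. Where 4 values follow each other, they run from control replicate 1 to control replicate 4. The floor covers counting error alone. Over 10036 well-counted genes, the correlation of log2 CPM between libraries, across genes, was 0.993 to 0.996, and no pair of libraries was identical.

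Some genes could not be read in these tables. None of the 2414 IDs on chromosome X, the 1547 on Y or the 37 on the mitochondrial genome had a count in any of the 12 libraries. Genes such as Bgn (biglycan), Timp1 and Tnmd (tenomodulin), all X-linked, are therefore listed at 0 and say nothing about the cells. Genes that lie within other genes were also mostly at 0. Of 1102 autosomal protein-coding genes whose whole span, introns included, is covered by other counted genes on either strand, 1093 (99.2%) had no count in the control libraries. Among the 534 of these that share no exon sequence with another gene, 527 (98.7%) were at 0. Of 11379 coding genes with no covered part, 3109 (27.3%) were at 0. The share at 0 did not rise steadily with cover: it was 4.44% for genes covered over up to 25% of their span, 12.1% over 25% to 50%, 13.8% over 50% to 75% and 47.6% over more than 75% but not all. The widely expressed genes Hif1a, Timp3 and Eif3m are among the wholly covered genes at 0, as is Col10a1, which lies inside Nt5dc1 on the opposite strand. Of the counted genes named below, Aldoa, Ccn2, Chadl, Dpp4, Dpt, Fgfr2, Loxl2 and Pitx1 are covered over more than 50% of their span, and whether this lowers their levels was not tested. A 0 for a wholly covered gene is not read as lack of expression here. How the counting treated such overlaps is not given in the sources used here, and the cause of the zeros was not tested.

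The highest levels in the control libraries belonged to matrix genes, to the translation machinery and to annotated pseudogenes. In the mean of the 4 libraries, 309 genes held as much of the TPM as all other genes together. The 10 highest genes held 12.2% to 13.8% of the TPM, the 100 highest 33.5% to 34.9% and the 1000 highest 67.4% to 68.3%. There were 141 genes at 1000 TPM or more, 1590 at 100 TPM or more and 8026 at 10 TPM or more. Of 21880 coding genes, 11032 reached 1 TPM in all 4 libraries.

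Annotated pseudogenes took 12.4% to 14.2% of the TPM but only 2.28% to 2.65% of the counts. They hold the 4 highest ranks, Gm29216 at 22602 TPM (3013), Gm28661 at 16810 TPM (1751), Gm10925 at 15875 TPM and Gm28437 at 14448 TPM, all on chromosome 1. These pseudogenes were singled out after their levels were seen, and their sequences are shown because they say which RNA the counts can come from. Of 10 pseudogenes among the 60 highest genes, 6 matched a mitochondrial gene over at least 80% of their length at 95% identity or more, namely mt-Co1, mt-Co2, mt-Atp6, mt-Co3, mt-Nd4 and mt-Nd3. A further 2, Rpl39-ps and Tpt1-ps3, had such a match on chromosome X. That of Tpt1-ps3 is another pseudogene, Tpt1-ps6, and it matched the autosomal gene Tpt1 at 100% identity. Rpl34-ps1 and Gm8730 matched the autosomal genes Rpl34 and Rplp0 at 100% identity. In the sequences below, from the GENCODE mouse transcripts and in 5′ to 3′ direction, capitals mark the only base at which the aligned pair differs.
Gm29216: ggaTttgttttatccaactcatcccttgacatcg
mt-Co1: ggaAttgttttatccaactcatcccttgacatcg
Rpl39-ps: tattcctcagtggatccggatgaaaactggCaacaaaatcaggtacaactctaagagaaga
Rpl39: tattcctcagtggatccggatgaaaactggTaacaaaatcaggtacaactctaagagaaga
Gm28661 and mt-Co2: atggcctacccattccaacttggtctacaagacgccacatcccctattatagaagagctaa

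Gm29216 aligned with mt-Co1, a subunit of cytochrome c oxidase, over 483 bases with 1 mismatch, A1066T, counted from 1 at the 5′ end of the mt-Co1 transcript and with the mitochondrial base first. Rpl39-ps aligned with Rpl39, an X-linked ribosomal protein gene, over 151 bases with 1 mismatch, T371C, counted the same way along the Rpl39 transcript and with the base of Rpl39 first. Gm28661 was identical to mt-Co2 over all 681 aligned bases. Reads from the functional genes and from these copies cannot be told apart over the identical stretches, and mt-Co1, mt-Co2 and Rpl39 are listed at 0. The 6 pseudogenes with a mitochondrial match held 7.61% of the TPM. Gm29216 stood at 20768, 19986, 22940 and 26715 TPM, highest in replicate 4.

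Among genes without such a match, Rplp1, a protein of the ribosomal stalk, had the highest level at 12717 TPM (598), followed by the translation elongation factor Eef1a1 at 10257 TPM (518). Copies limit these values too: 12 of the 50 coding genes among the 60 highest had a copy at 95% identity or more over more than 50% of their transcript, among them Rplp1, Eef1a1, S100a11 and Ldha. Secreted matrix proteins came next. Fn1 (fibronectin) stood at 9592, 7849, 8736 and 10090 TPM, Sparc (osteonectin) at 9199, 8798, 8695 and 8530 TPM, and Thbs1 (thrombospondin 1) at 9000, 7632, 8439 and 9137 TPM. Replicate 2 was the lowest for Fn1 and Thbs1 and the second highest for Sparc. Of the 30 highest genes, 7 were on the matrix lists, 4 were cytosolic ribosomal proteins and 8 were pseudogenes. Others among them were Vim (vimentin, 5940 TPM), S100a6 (5552 TPM), Lgals1 (galectin 1, 4473 TPM), Bsg (basigin, 4670 TPM), Cst3 (cystatin C, 3955 TPM), S100a11 (3433 TPM) and Eef2 (3138 TPM).

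**Figure D1:**
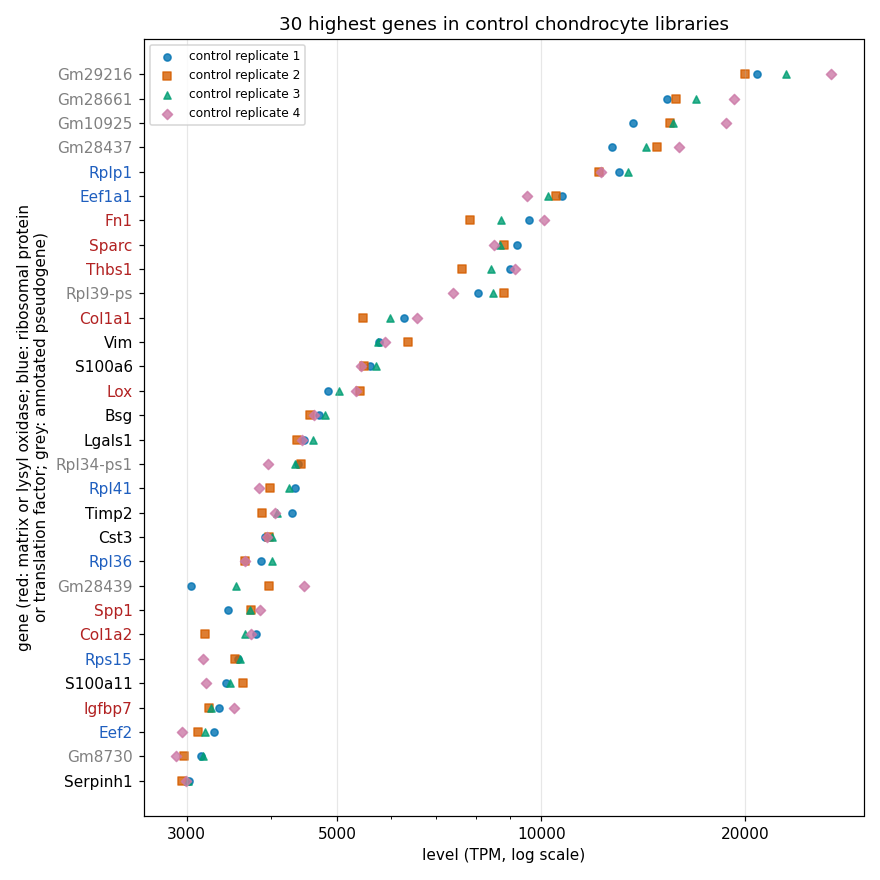
Level in TPM (log axis) of the 30 genes with the highest mean over the 4 control libraries, 1 point per library. The 4 highest are pseudogenes with a mitochondrial match, and Fn1, Sparc and Thbs1 lie between 7632 and 10090 TPM in all 4 libraries.

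The chondrocyte label was read against 5 core markers, of which 3 were among the 60 highest genes. The floor itself does not separate cell types, since most fibroblast and macrophage markers were above it too. Col2a1, the type II collagen chain, stood at 2429, 1977, 2284 and 2427 TPM (mean 2279, SD 212), rank 45 of all genes. Comp, a pentameric protein that binds collagen fibrils, stood at 2226, 1834, 2213 and 2367 TPM, rank 48. Fmod (fibromodulin), a small leucine-rich proteoglycan on fibrils, stood at 2177, 1922, 2100 and 2178 TPM, rank 52. With all exons as length, these 3 genes had like levels, and their ranges over the 4 libraries overlapped. With the longest transcript as length they lay further apart, at ranks 24 (Col2a1), 56 (Comp) and 73 (Fmod). Replicate 2 was the lowest for each.

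Sox9 and Acan were far lower. Sox9 stood at 107, 109, 107 and 109 TPM, rank 1485, and its SD was 1.45 TPM. Acan (aggrecan) stood at 59.1, 47.7, 54.2 and 62.7 TPM, rank 2768. None of the 4 Acan values overlapped those of Sox9, and both genes lay far above 2.37 TPM, the median of all 20716 autosomal coding genes. In bulk RNA, fewer cells of a type and less RNA per cell cannot be told apart, so a level does not say how many cells made it. Ranks depended on the length used. That of Col2a1 was 24 with the longest transcript as length and 9 by counts. That of Sox9 was 1963 and 1337, and that of Acan 3510 and 1459, in the same order.

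Of 25 further cartilage markers, 24 were above the floor, and the median over all 25 was 27.7 TPM. Col11a1 stood at 369, 297, 354 and 384 TPM. Scrg1, induced in chondrogenesis, stood at 219, 216, 221 and 211 TPM. Cnmd (chondromodulin), an inhibitor of vessel growth, stood at 199, 187, 186 and 184 TPM, and Ucma, a small secreted protein of immature cartilage, at 136, 128, 143 and 155 TPM. The sulfate donor enzyme Papss2 reached 99.7 TPM (8.65). Matn3 (matrilin 3) was at 46.6 TPM (2.43) and Hapln1, the link protein that ties aggrecan to hyaluronan, at 43.7 TPM (1.69). Matn1 (matrilin 1) stood at 3.43, 1.46, 5.05 and 3.47 TPM. Chadl was at 2.52 TPM, with 52.8% of its span covered by another gene. Chad (chondroadherin) was at 0 in all 4 libraries and lies wholly inside Acsf2.

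Of 12 markers of the superficial zone of joint cartilage, 3 reached 100 TPM. Prg4 (lubricin), which lubricates the joint surface, stood at 874, 768, 838 and 958 TPM, rank 166. Dkk3, a secreted Dickkopf family member, stood at 969, 880, 978 and 925 TPM. Thbs4 reached 103 TPM (5.06), Erg 42.4 TPM (3.01) and Clu (clusterin) 38.1 TPM (2.91). Gdf5, a factor of joint formation, had at most 9 counts in a library, Sfrp5 at most 5 and Crtac1 at most 4. Of this list, 9 genes were above the floor in all 4 libraries, and the list median was 19.9 TPM.

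Hypertrophic and mineralising markers had a median of 2.76 TPM over 12 genes, with 10 above the floor, 5 at 10 TPM or more and 2 at 100 TPM or more. The 5 genes are 41.7% of the list, near the 36.8% of all autosomal coding genes. The 2 genes are 16.7% of the list, against 7.20%. Spp1 (osteopontin), a secreted phosphoprotein of many cell types, was the highest at 3458, 3734, 3715 and 3853 TPM, rank 23. Mmp13, the collagenase that cleaves type II collagen, stood at 92.9, 114, 106 and 92.9 TPM, and Ibsp (bone sialoprotein) at 16.0, 26.9, 25.2 and 21.4 TPM. Replicate 1 was the lowest for Spp1 and Ibsp. Runx2, which drives hypertrophy and bone formation, was at 16.3 TPM (1.27), and the ratio of Runx2 to Sox9 was 0.151 (0.010), or 0.274 with the coding length. Alpl (alkaline phosphatase), needed for mineral deposition, was at 2.23 TPM (0.637), and Ihh (Indian hedgehog), made by prehypertrophic cells, had 8, 2, 2 and 1 counts. Col10a1 had no count, which cannot be read because of its place inside Nt5dc1.

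The fibroblast list ranged from collagens at or above the level of Col2a1 to genes near the floor. Col1a1 stood at 6277, 5455, 5982 and 6564 TPM, rank 11, and Col1a2 at 3802, 3194, 3658 and 3732 TPM, rank 24. In every library Col1a1 lay above Col2a1. Col3a1 reached 2071 TPM (122), Col5a2 1760 TPM (184) and Ly6a, a surface protein of stromal progenitors, 1708 TPM (63.1). The list median was 87.9 TPM over 15 genes, of which 14 were above the floor. Thy1 was at 129 TPM, Postn (periostin) at 87.9 TPM (6.18) and Pdgfra at 62.6 TPM (3.31). The fibroblast gene Pi16 had 3, 4, 4 and 6 counts. Dpt at 2.11 TPM (0.843) and Dpp4 at 1.95 TPM (0.391) are covered by other genes over 73.5% and 67.1% of their span, so these values were not read as low expression.

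Markers of other cell types were read next. By list median, macrophage markers were the highest after the fibroblast list, with all 13 above the floor and a median of 20.2 TPM. By summed mean level, the mural list (1413 TPM) and the osteoclast list (926 TPM) lay above the macrophage list (556 TPM). Lyz2 stood at 318, 324, 287 and 262 TPM, but 96.0% of its transcript has a copy in Lyz1 at 95% identity or more. Cd68, a lysosomal protein of phagocytes, stood at 59.1, 63.1, 56.2 and 54.8 TPM, and the complement gene C1qb at 49.5, 52.9, 55.3 and 48.0 TPM. Csf1r, the receptor that macrophages need, was at 8.80 TPM (0.877), Adgre1 (F4/80) at 7.07 TPM (1.25) and Ptprc (CD45) at 0.326 TPM (0.050). The summed level of the macrophage list was 507 to 598 TPM per library, against 5891 to 7143 TPM for the 5 core cartilage markers. The sum was 1425 to 1567 TPM for the 25 further cartilage markers and 14588 to 17144 TPM for the fibroblast list. Which cells made these RNAs was not tested.

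In several lists single genes stood far above the rest. In the mural list, which marks pericytes and smooth muscle, Acta2 stood at 1118, 1263, 1042 and 1020 TPM, Pdgfrb at 220, 196, 212 and 232 TPM and Cspg4 at 80.6, 67.3, 73.8 and 90.3 TPM, while Myh11, Mcam and Notch3 were at 1.71, 1.43 and 1.20 TPM. The median of these 8 genes was 3.67 TPM. In the osteoclast list, Ctsk (cathepsin K), a collagen-degrading protease, stood at 935, 877, 947 and 931 TPM, while the next gene, Atp6v0d2, was at 1.90 TPM and Calcr, Dcstamp and Mmp9 had at most 6 counts in a library. Acp5 (TRAP) was at 0 but is a wholly covered gene. In the osteoblast list Dlx5 stood at 17.7, 26.1, 21.7 and 23.7 TPM, and the list median was 2.25 TPM over 10 autosomal genes. Sp7 (osterix) was at 2.92 TPM (0.370), and the osteocyte genes Dmp1, Mepe and Sost had at most 20, 3 and 5 counts. The tendon gene Mkx was at 15.4 TPM (0.755), and Scx (scleraxis) was at 0 inside Bop1. Pparg, the adipocyte regulator, was at 19.7 TPM (1.17) and Fabp4 at 17.1 TPM (0.498), while Adipoq was at 0.953 TPM and Lep and Cidec were listed at 0.

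The endothelial genes had a median of 0.226 TPM, with Pecam1 at 0.538 TPM (0.0487) and Cdh5 at 0.507 TPM (0.379). The skeletal muscle genes had a median of 0.104 TPM, with Acta1 highest at 12.4 TPM (0.521) and Myod1, Myog, Myf5 and Pax7 at 4 counts or fewer in each library. The epithelial genes had a median of 0.180 TPM and Krt14 and Krt8 were listed at 0. Of 11 lymphocyte and neutrophil genes, 8 were at or under the floor in every library, Cd3e and S100a9 among them. None of 6 autosomal erythroid genes was above the floor in all 4 libraries: Hbb-bs, an adult beta globin, had 1, 0, 0 and 10 counts. Among neuronal genes, Stmn2 stood at 18.6, 17.7, 14.9 and 16.8 TPM, while Snap25, Elavl4 and Rbfox3 had at most 7 counts in a library. In the Schwann list the highest gene was S100b, also a gene of chondrocytes, at 3.90, 5.15, 9.12 and 6.66 TPM.

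**Figure D2:**
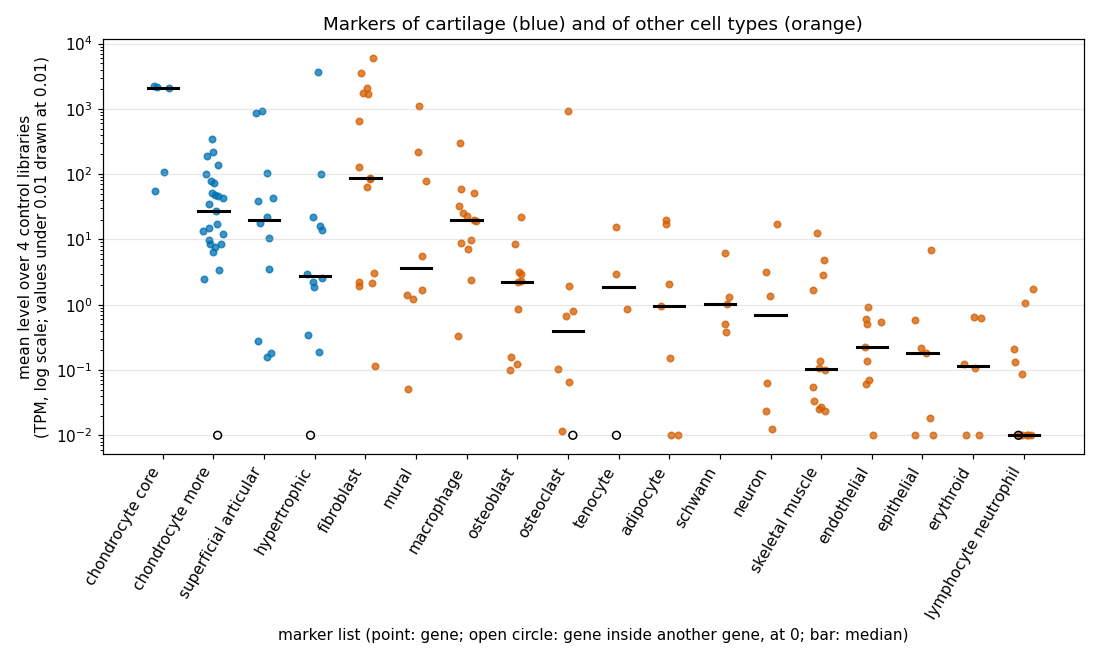
Mean level in TPM over the 4 control libraries (log axis) of every autosomal gene of the 18 marker lists, with the list median as a bar and genes wholly inside another gene as open circles. The 5 core cartilage markers have a median of 2094 TPM and the 25 further cartilage markers 27.7 TPM. The fibroblast list has 87.9 TPM, the macrophage list 20.2 TPM and the endothelial list 0.226 TPM.

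The collagen genes spanned the whole range of levels. Of 42 autosomal collagen genes, 34 were above the floor, 21 at 10 TPM or more and 13 at 100 TPM or more. Together they held 1.97% (0.158) of the TPM and 5.44% of the counts. Below the fibril-forming chains Col1a1, Col1a2, Col2a1 and Col3a1 were Col5a2 and Col5a1, chains of type V collagen that start fibrils, at 1760 and 654 TPM. Of the beaded-filament chains of type VI collagen, which surround chondrocytes, Col6a1 stood at 988, 860, 920 and 998 TPM, Col6a2 at 394, 347, 378 and 385 TPM and Col6a3 at 391, 334, 363 and 398 TPM. Col12a1, a chain that sits on fibrils, reached 579 TPM (61.0), and the network chains Col8a1 and Col8a2 153 TPM (15.7) and 125 TPM (12.0). The basement membrane chains Col4a1 and Col4a2 were at 41.8 TPM (5.02) and 67.1 TPM (6.90). Col6a4, Col6a5 and Col13a1 had at most 2 counts in any library.

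The chains of the cartilage fibril were present in unequal amounts. The ratio of Col2a1 to Col1a1 was 0.387, 0.362, 0.382 and 0.370 (mean 0.375, SD 0.011), so type I chains outnumbered type II chains per length in every library. With the longest transcript as length the ratio was 0.614 and with the coding length 0.516, still below 1. The ratio of Col11a1 to Col2a1 was 0.154 (0.0036) and that of Col11a2 to Col2a1 0.0346 (0.0020). Of the type IX chains, which decorate type II fibrils, Col9a1 was at 52.2 TPM (2.50) and Col9a3 at 47.7 TPM (4.76), but Col9a2 only at 8.40 TPM (1.40). The ratios of Col9a1 and of Col9a3 to Col9a2 were 6.32 (0.842) and 5.73 (0.513), and in every library they lay between 5.05 and 7.40.

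Chain ratios depended on the gene length in places. The ratio of Col1a1 to Col1a2, whose protein chains assemble in a fixed unequal proportion, was 1.69 (0.056) with all exons as length, but 0.804 with the longest transcript and 0.842 with the coding length, so the order of these chains cannot be read. The ratio of Col6a1 to Col6a2 was 2.50 (0.067) but 1.33 with the coding length, and that of Col6a3 to Col6a2 was 0.988 (0.034) but 0.447. The ratio of Col11a2 to Col2a1 was 0.0217 with the longest transcript. Col27a1, a fibrillar collagen of cartilage and a target of SOX9, was at 11.7, 12.9, 12.5 and 17.4 TPM, highest in replicate 4.

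**Figure D3:**
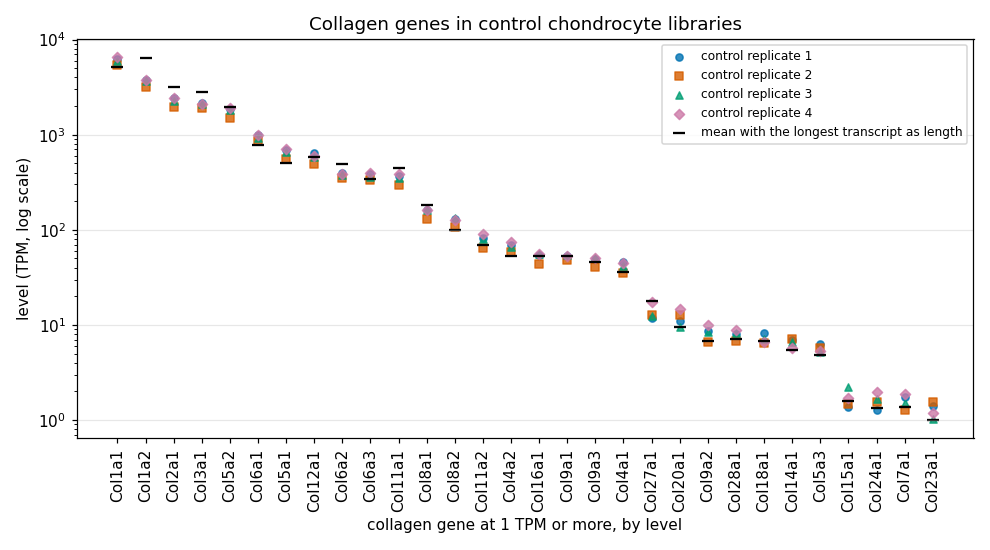
Level in TPM (log axis) of the 30 autosomal collagen genes at 1 TPM or more, 1 point per control library, with a black bar for the mean when the longest transcript is taken as length. Replicate 2 is the lowest library for 19 of the 21 genes at 10 TPM or more, and the bars of Col1a1 and Col1a2 change order.

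Noncollagenous matrix genes held more of the TPM than collagens. The 87 matrix glycoproteins held 5.67% (0.259) of the TPM and 8.59% of the counts, and 81 of them were above the floor. The 29 autosomal proteoglycans and related genes held 0.431% (0.0231). The 3 matrix lists together, 158 genes, held 8.08% (0.437) of the TPM and 14.6% (0.935) of the counts, and 135 of them were above the floor. Of the 13 at or under the floor in every library, 8 were wholly covered genes, among them Ogn, Omd and Aspn, small leucine-rich proteoglycans that lie inside one gene span, and Thbs3.

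Among the glycoproteins below Fn1, Sparc, Thbs1 and Spp1, Igfbp7 stood at 3344, 3241, 3263 and 3518 TPM. Ccn5, Ccn3 and Ccn1, matricellular proteins of the CCN family, were at 2606 TPM (72.9), 1811 TPM (39.2) and 1573 TPM (96.9). Mgp (matrix Gla protein), which keeps cartilage from mineralising, stood at 2336, 2143, 2287 and 2243 TPM. Ecm1 was at 1999 TPM (78.9) and Pcolce, which speeds the trimming of procollagen, at 1390 TPM (53.8). Vtn (vitronectin) was at or under the floor in all 4 libraries.

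Acan, the main proteoglycan of cartilage matrix, was not the highest of its list. Fmod was the highest, followed by Prg4, Lum (lumican) at 478, 510, 470 and 475 TPM, Hspg2 (perlecan) at 290, 227, 267 and 296 TPM, Dcn (decorin) at 222, 234, 208 and 227 TPM and Prelp at 222, 169, 198 and 206 TPM. Acan was below all of these in each library. The ratio of Acan to Vcan (versican), the large proteoglycan of soft connective tissue, was 4.91 (0.511), and Vcan was at 11.4 TPM (0.762). Replicate 2 was the lowest for Hspg2, Prelp and Acan and the highest for Lum and Dcn. Ncan (neurocan), a proteoglycan of brain, was at or under the floor.

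Genes that build the glycosaminoglycan chains were moderate. Of 28 genes, 26 were above the floor, and the median over all 28 was 38.6 TPM. Chpf, a chondroitin polymerising factor, was at 219 TPM (17.8), Ugdh, which makes the UDP-glucuronate precursor, at 155 TPM (5.35), the sulfotransferase Chst12 at 152 TPM (7.48) and the heparan sulfate polymerase Ext2 at 117 TPM (6.47). Chst15 was at 0 and is wholly covered.

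Of the machinery that folds and exports collagen, all 45 autosomal genes were above the floor, 40 of them at 100 TPM or more, with a median of 230 TPM. Serpinh1 (HSP47), the collagen chaperone, stood at 3029, 2950, 3018 and 2993 TPM and P4hb, a subunit of prolyl 4-hydroxylase and a disulfide isomerase, at 2689, 2588, 2628 and 2616 TPM. Calr (calreticulin) was at 2137 TPM (69.6) and Pdia3 at 1504 TPM (44.2). The share of TPM in this list, 2.09% with an SD of 0.0225, was steadier between libraries than that of the matrix lists. The 5 lysyl oxidases, which cross-link collagen and elastin, were all above the floor. Lox stood at 4850, 5405, 5039 and 5335 TPM, rank 14, with the lowest value in replicate 1, against 363 TPM (12.3) for Loxl1. Loxl2 was at 50.3 TPM (2.76), but other genes cover 85.6% of its span.

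Matrix proteases ranged from undetected to high levels. Of 41 metalloprotease genes, 26 were above the floor, a share near the 59.8% of all coding genes, and 5 reached 100 TPM. Mmp14, a membrane-bound collagenase, stood at 643, 562, 613 and 638 TPM, Mmp23 at 166 TPM (5.03), Mmp2 at 129 TPM (5.36) and Adamts1 at 108 TPM (12.0). Adamts5, the main aggrecanase of mouse cartilage, stood at 77.0, 66.4, 80.8 and 90.2 TPM. Mmp3 was at 28.5 TPM (2.81), and Mmp7, Mmp8, Mmp9 and Mmp20 were at or under the floor. On the list of protease inhibitors and related serpins, Timp2, a metalloprotease inhibitor, stood at 4287, 3869, 4071 and 4053 TPM, Serpine2, which acts on serine proteases, at 1344 TPM (35.7) and Serpinf1 (PEDF), which blocks vessel growth, at 1077 TPM (37.8). Timp3, an inhibitor of aggrecanases, and Timp4 are wholly covered genes and were at 0. Cathepsins of the lysosome were abundant, with Ctsb, Ctsz, Ctsl and Ctsk at 1154, 1013, 1007 and 923 TPM. Integrin genes and other matrix receptors had a median of 106 TPM over 23 genes. Anxa5 and Anxa2 were at 1583 TPM (38.7) and 1231 TPM (35.5), Itgb1, the beta chain shared by collagen and fibronectin receptors, at 1056 TPM (78.3) and the syndecan Sdc2 at 692 TPM (18.4).

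**Figure D4:**
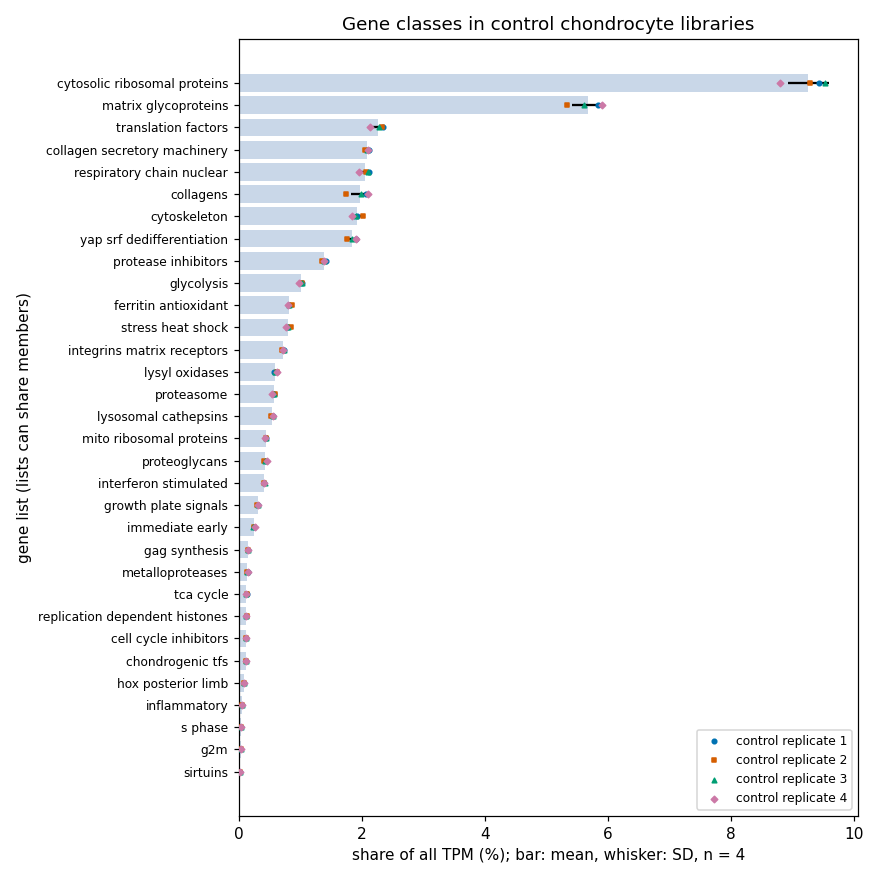
Share of all TPM (percent, axis from 0) held by each gene class list: bars are means, whiskers SD over 4 libraries and points single control libraries. Cytosolic ribosomal proteins hold 9.26% and matrix glycoproteins 5.67% of the TPM, an order that turns by share of counts, and the lists can share genes.

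Of the housekeeping classes, cytosolic ribosomal proteins held 9.26% (0.327) of the TPM but 4.49% of the counts, less than the matrix glycoproteins on that scale. On the TPM scale, translation factors held 2.27% (0.0936), nuclear genes of the respiratory chain 2.06% (0.0673) against 0.953% of the counts, the cytoskeleton list 1.92% (0.0755) and glycolysis 1.02% (0.0278). Of 80 autosomal ribosomal protein genes, 72 were above the floor, all of them at 10 TPM or more. Rpl35 and Rpl35a are wholly covered and were at 0, and Rpl24 and Rps10, covered over 98.7% and 98.1% of their span, were at 0 too. Glycolytic genes were led by Ldha (lactate dehydrogenase A) at 2149, 2120, 2163 and 1974 TPM, Aldoa at 1937, 1980, 1918 and 1847 TPM, Pkm at 1561 TPM (55.7) and Pgam1 at 1109 TPM (77.9). Gapdh, often used as a reference gene and named here after its level was seen, reached 237 TPM (8.68) with all exons as length. Its level was not read as low, because it depends on that length. With the longest transcript as length, the share of TPM in glycolysis was 1.43%. In addition, 174 other annotated genes hold a stretch at 95% identity or more with the Gapdh transcript. Of the respiratory chain, Cox6a1 was at 1818 TPM (55.8), Ndufa4l2, an isoform induced by low oxygen, at 1557 TPM (53.9) and Cox8a at 1511 TPM (47.4). The genes of the tricarboxylic acid cycle were lower, with a median of 81.9 TPM over 14 genes and Mdh2 highest at 215 TPM (7.85).

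The 15 genes of the list for YAP and SRF targets and for loss of the chondrocyte state, which shares Thbs1, Acta2 and S100a6 with lists above, held 1.85% (0.0692) of the TPM and had a median of 215 TPM. Ccn2 (CTGF) stood at 678, 631, 650 and 739 TPM, Amotl2 at 293, 301, 285 and 318 TPM and Tpm1 at 288 TPM (15.6). Actb and Actg1, the cytoplasmic actins, were at 2650 TPM (180) and 1284 TPM (64.3). Cnn1 (calponin 1), a smooth muscle protein, was at 21.6 TPM (2.55).

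Transcription factors of cartilage were read next. The ratio of Sox9 to Sox5 was 13.1 (1.92) and that of Sox9 to Sox6 was 7.24 (0.670), and these fell to 6.58 and 4.23 with the longest transcript and to 5.65 and 3.29 with the coding length. Of 28 chondrogenic factors, 24 were above the floor, and the median over all 28 was 16.0 TPM. Barx1, which is expressed in developing joints, stood at 390, 403, 358 and 380 TPM, the limb mesenchyme gene Prrx1 at 160, 175, 158 and 157 TPM and Foxc1 at 127, 131, 127 and 137 TPM. Sox9 followed, and Shox2, a regulator of limb bone growth, was at 52.0 TPM (0.677). Foxa2 and Foxa3, factors of hypertrophy, were at 0.451 TPM (0.269) and 0.493 TPM (0.182), and Mef2c was at 0.339 TPM (0.0512). Hif1a was at 0 as a wholly covered gene, while Epas1 (HIF2A) was at 31.7 TPM (1.91).

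Among the positional genes, Hoxa10 stood at 214, 234, 208 and 212 TPM and Hoxa11 at 80.5, 85.8, 86.3 and 79.5 TPM, both of the group that patterns the limb. Pitx1 and Tbx4, the genes that mark the hindlimb, stood at 195, 190, 189 and 189 TPM and at 46.6, 52.2, 44.3 and 49.2 TPM. Of 47 genes in this list, 27 were above the floor, a share near the 59.8% of all coding genes, and 17 at or under it in every library. Of those 17, 12 were wholly covered, Hoxa3, Hoxa5 and Hoxc9 among them, so gaps in the Hox clusters were not read.

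Growth plate signals were mixed. Of 48 autosomal genes, 42 were above the floor, and the median over all 48 was 19.1 TPM. Bmp4 stood at 371, 360, 339 and 372 TPM and Grem1 (gremlin), a secreted BMP antagonist, at 264, 275, 271 and 270 TPM. Tgfbr2 and Smo were at 130 TPM (3.12) and 128 TPM (4.04). Fgfr2 was at 85.0 TPM (3.72) and Fgfr3, the receptor that restrains growth of cartilage, at 17.2 TPM (2.04). Igf2 and Fgf2 were listed at 0 in all 4 libraries, but over 99.9% of the span of each is covered by other genes, so these zeros were not read either.

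Of the cell cycle inhibitor list, 2 of 10 genes reached 100 TPM, and the list median was 44.4 TPM. The S phase list had a median of 11.8 TPM over 19 autosomal genes and the G2 and M phase list 10.7 TPM over 22 genes, and all were above the floor. Rrm2, a subunit of ribonucleotide reductase, stood at 168, 172, 160 and 155 TPM, Cdc20 had a mean of 32.1 TPM, and Mki67 stood at 10.4, 12.2, 11.7 and 10.3 TPM. Cdkn2a, which encodes p16INK4a and p19ARF, stood at 508, 484, 516 and 484 TPM, rank 292, and Cdkn1a (p21) at 414, 397, 425 and 395 TPM. Both lay above every gene of the S phase and the G2 and M phase lists in each library. Cdkn2b was listed at 0, although no other gene covers it.

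All 18 interferon-stimulated genes were above the floor, against 59.8% of all coding genes, and 14 reached 10 TPM, with a median of 27.8 TPM and 0.414% (0.0107) of the TPM. Bst2 (tetherin) stood at 2071, 2087, 2282 and 2076 TPM, rank 50, Isg15 at 706, 711, 743 and 713 TPM, and Ifit1 at 329, 361, 329 and 343 TPM. Ifit3 was at 546 TPM (14.6). Copies at 95% identity or more in other genes cover 72.1% of the transcript of Isg15 and 97.4% of that of Ifit3, so both levels are uncertain. Inflammatory genes were lower, with a median of 19.2 TPM over 18 genes. The receptor chain Il6st was the only one at 100 TPM or more, at 183 TPM (10.1). Nfkbia was at 66.0 TPM (3.69), Ptgs2 at 20.9 TPM (1.99) and Cxcl1 at 21.7 TPM (1.11). Ccl2 was at 0 and is wholly covered.

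Most stress and immediate early genes were at 10 TPM or more. The immediate early genes, which respond quickly to many signals, had a median of 88.7 TPM over 17 genes, and all were above the floor. Dusp1 stood at 413, 393, 400 and 450 TPM, Junb at 374, 346, 357 and 389 TPM and Fos at 167, 182, 167 and 223 TPM. Replicate 4 was the highest for each of these 3. The stress list had a median of 236 TPM over 18 genes, with 17 at 1 TPM or more and 16 at 10 TPM or more. Among its highest genes, Mt1 (metallothionein 1) was at 1730 TPM (80.7), Hmox1 at 834 TPM (48.3), Sqstm1 at 832 TPM (31.9) and Hsp90ab1 at 1529 TPM (99.0). Of the ferritin and antioxidant list, Fth1 was at 2654 TPM (103), Ftl1 at 1253 TPM (34.5) and Gpx4 at 1137 TPM (39.2).

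The sirtuins, protein deacylases and the family of the plasmid's gene, ranged widely in the control libraries. Sirt2 stood at 86.4, 93.7, 86.3 and 86.3 TPM, Sirt6 at 24.9 TPM (2.32), Sirt7 at 21.9 TPM (1.43), Sirt4 at 16.4 TPM (1.70), Sirt1 at 13.3 TPM (1.06) and Sirt3 at 6.02 TPM (0.656). Sirt5, the mitochondrial desuccinylase carried by the study's mutant plasmid, stood at 0.326, 0.400, 0.241 and 0.455 TPM, from 11, 15, 9 and 16 counts. It was the lowest of the 7 in every library. No other gene covers any of its span, but 45.9% of its transcript has a copy at 95% identity or more in other genes, so its level is uncertain.

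The spread between the 4 control libraries was measured against counting error and against the trend of dispersion with abundance, with the edgeR goodness of fit of a fit without groups. Of 12773 genes tested, 5919 (46.3%) spread beyond counting error at a Benjamini-Hochberg adjusted p under 0.05, and 38 (0.298%) beyond the dispersion trend. Without any adjustment, 6874 and 765 genes had a p under 0.05. The common coefficient of variation (CV) beyond counting was 7.04%. Without control replicate 2, only 3806 genes spread beyond counting error. The count of 38 dropped to 13 without replicate 1 and to 18 without replicate 3.

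Of the matrix genes, 96 of 129 tested (74.4%) spread beyond counting error, against 46.3% of all genes. Of the collagens, 24 of 31 did so, of the ribosomal proteins 67 of 72 and of the macrophage markers 3 of 13. More counts give this test more power, so shares of lists with different counts are not compared. Of the core markers, Col2a1, Comp, Fmod and Acan spread beyond counting error, with a CV of 9.87%, 11.2%, 6.41% and 11.8%. Sox9 did not, with a CV of 1.04% where counting error gives 1.95% (adjusted p = 0.871, edgeR goodness of fit). No core marker spread beyond the dispersion trend.

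Single libraries stood at the edge of whole classes. Replicate 2 had the lowest TPM for 19 of 21 collagens at 10 TPM or more and for 65 of 95 genes of the 3 matrix lists (68.4%), against 1805 of 8026 genes (22.5%) overall. Collagens held 1.75% of the TPM in replicate 2 and 1.98% to 2.09% in the others. Replicate 4 had the lowest TPM for 53 of 72 ribosomal protein genes, where it was the lowest for 27.0% of all genes. Genes of a class are not independent of each other, and TPM values within a library sum to a fixed total. Replicate 2 was also farthest from the median of the 4 libraries more often than any other library, for 2018 of the 5919 genes beyond counting error. Replicate 4 was farthest for 1738 of them, replicate 3 for 1178 and replicate 1 for 985. Low values in replicate 2 were not confined to matrix genes. At 10 TPM or more, it was the lowest for 8 of 10 cathepsins, but for only 2 of 41 proteasome genes.

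Of the 38 genes beyond the dispersion trend, 33 were at 5 CPM or more, and 8 of these carry only a predicted or clone-based name, the pseudogene Gm28439 among them. The 10 named genes with the highest CV beyond counting were Hspd1-ps3, Rsph3a, Kcnip4, Lrmda, Snhg11, Lncpint, Ankrd11, Ptbp2, Camk1d and Magi2. Hspd1-ps3, a processed copy of Hspd1, stood at 4.17, 3.98, 13.6 and 2.22 CPM, with the high value in replicate 3. Kcnip4, a potassium channel-interacting protein gene, stood at 9.28, 22.7, 8.94 and 15.7 CPM (adjusted p = 9.73e-08, edgeR goodness of fit). Snhg11, a noncoding RNA, stood at 18.7, 15.4, 17.7 and 31.1 CPM, with the high value in replicate 4.

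Of the 33 genes, 18 (54.5%) were higher in replicates 2 and 4 than in 1 and 3, against 19.3% of all tested genes, and 5 were lower. This split was chosen after the values were seen, and its cause was not tested. Other genes among the 33 are named here after their values were seen. Malat1 stood at 1593, 2223, 1314 and 2103 CPM (CV 23.7%, adjusted p = 2.44e-08, edgeR goodness of fit) and Neat1, the scaffold of paraspeckles, at 253, 283, 266 and 360 CPM. Meg3, an imprinted noncoding RNA, stood at 771, 798, 768 and 1137 CPM. The cyclin L genes Ccnl1 and Ccnl2 stood at 46.4, 59.8, 44.2 and 65.5 CPM and at 118, 123, 121 and 168 CPM. Col27a1 was the only matrix gene among the 38, at 46.9, 50.7, 50.9 and 69.0 CPM (adjusted p = 0.0369, edgeR goodness of fit).

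**Figure D5:**
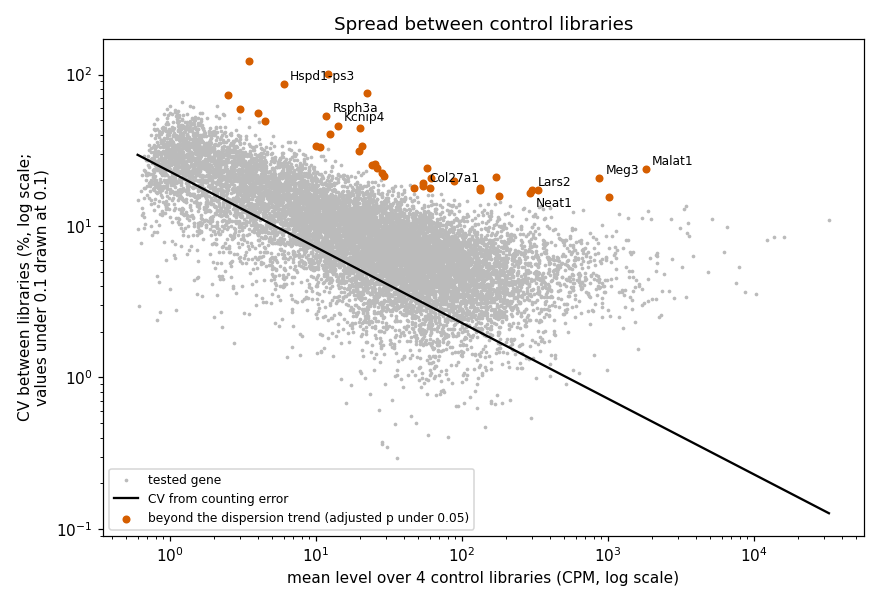
CV between the 4 control libraries (percent, log axis) against mean CPM (log axis) for 12773 tested genes, with the CV that counting error alone gives as a line. The 38 genes beyond the dispersion trend lie along the upper edge, among them Malat1 and Meg3 at high levels.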

How the data were processed

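Poly(A) RNA was sequenced as 150 bp read pairs after NEBNext Ultra library preparation, per the labels' protocols. The deposited values are whole-number read counts per gene ID, not normalised. The submitters' processing notes name FastQC 0.11.9, HISAT2 2.2.1, HTSeq 2.0.2 and DESeq2 1.38.3, with the GRCm39 build. Strand setting and treatment of reads with several matches are not given in the sources used here.

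The reference was GENCODE M21 (GRCm38), of another build, so it gave symbols, lengths, biotypes and gene overlaps and no printed coordinates. It matched 52081 of 57010 IDs; the 4929 without a length held 0.479% to 0.527% of the counts. TPM used the union of a gene's exons. Copies were searched with BLAST 2.17.0. Spread between libraries was tested with edgeR 4.0.16 in R 4.3.3 (intercept-only fit, TMM, filterByExpr, goodness of fit, Benjamini-Hochberg threshold 0.05) and checked on simulated data. Other lengths, scalings and filters, DESeq2 1.42.0 dispersion outliers and leaving out each library were tried.

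Named genes were the 30 highest by mean TPM, the fixed markers, the 4 highest members of each class list and, of genes beyond the trend at 5 CPM or more, the 10 with the highest CV beyond counting, predicted and clone-based names left out. Other members and genes named beside these were chosen after their values were seen. The members and lists were chosen with earlier results of these data known.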

Additional observations from a re-analysis of the deposited data

Results flagged for a closer look

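Of 109 values screened for a control library far from the other 3, 2 met Dixon's 95% critical value, and chance alone flags about 1 group in 20. The share of TPM in glycolysis genes was 0.976% in control replicate 4 and 1.03% in each of the others. Rps15, a ribosomal protein gene, stood at 3169 TPM in control replicate 4 and at 3531 to 3601 TPM in the others.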

How the results depend on the processing

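No paired analysis was possible because the replicate numbers only name the libraries and no groups were compared. Gene length set the ratios of chains: that of Col2a1 to Col1a1 was 0.614 with the longest transcript and 0.516 with the coding length, and that of Col1a1 to Col1a2 turned to 0.804 and 0.842. Col2a1 ranked 24 with the longest transcript, 9 by counts and 36 without pseudogenes. By counts, 566.25 genes in the mean held as much as all others, and the 3 matrix lists held 14.6% of the counts, against 5.86% of the TPM without the 20 highest genes and 9.31% without pseudogenes. Leaving out 1 library gave 3806 (without replicate 2) to 5039 (without replicate 1) genes beyond counting error and 13 (without replicate 1) to 34 (without replicate 2) beyond the trend; 3 libraries give the test less power. The settings without pseudogenes and without covered genes were chosen after seeing the data. Other scalings and filters gave 5920 to 7263 and 38 to 44 genes, and DESeq2 gave 45 dispersion outliers. The floor of 3 counts limits genes of low level.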

Other observations

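Long noncoding RNAs held 0.745% to 0.909% of the counts. H19, an imprinted transcript of growing tissue, stood at 929, 924, 965 and 921 TPM. Meg3 stood at 139, 146, 136 and 206 TPM, with the high value in replicate 4. These genes were chosen after their values were seen.

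The motif TATAAA, searched on both strands in RefSeq promoter windows on GRCm38.p6 of 300 bases, was found in 13.6% of 32851 windows in all and in 6.58% of 7720 windows of coding genes at 10 TPM or more. It was found in 17.5% of 80 windows of the 100 highest coding genes, of which 68 matched, in 16.9% of 83 windows of matrix genes at 10 TPM or more, and in 8.06% of 62 windows of ribosomal protein genes. A match is a description of these letters and not a site.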
